A study of Mus musculus with 4 samples.

Results

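The 35 genes examined here encode the MyD88, NF-kB and MAPK signalling machinery downstream of the interleukin-1 receptor IL-1R1. They were chosen by name as adaptor, kinases, ubiquitin enzymes, transcription factors and inhibitors of the pathway, and all 35 were found among the 56748 gene identifiers of the mouse hippocampal single-nucleus RNA data. The question was where in the hippocampus these genes were expressed, and whether repeated social defeat (RSD) or neuronal deletion of Il1r1 changed their RNA.

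Nuclei came from 8 pools, each made of the hippocampi of 3 male mice. In RSD a CD-1 aggressor entered the home cage for 2 h on each of 6 nights, while control mice were left undisturbed. The diet pools (Control-Vehicle and Stress-Vehicle, Control-PLX5622 and Stress-PLX5622) were C57BL/6 mice bought at 5 to 7 weeks of age and given standard AIN-76A diet or the same diet with PLX5622, a CSF1R inhibitor that depletes microglia, for 7 days before RSD. Con-IL-1R1+/+, Stress-IL-1R1+/+, Con-nIL-1R1-/- and Stress-nIL-1R1-/- came from lines bred in-house, whose ages were not given in the sources used here. In nIL-1R1-/- mice a Vglut2-driven Cre removed Il1r1 in Vglut2-lineage neurons, and IL-1R1+/+ mice were Cre-negative, so other cells of nIL-1R1-/- mice kept the receptor gene. Each condition was 1 pool. The 4 pairs (vehicle, PLX5622, IL-1R1+/+ and nIL-1R1-/-) were therefore the only replicates of stress, and each pool of mice carries no spread between animals. Values by pool are listed below in the order vehicle, PLX5622, IL-1R1+/+ and nIL-1R1-/-, first for control and then for stress.

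When IL-1 binds IL-1R1 and its co-receptor, the adaptor MyD88 recruits IRAK kinases, which engage the ubiquitin ligase TRAF6. Ubiquitin chains then activate TAK1, which switches on the IKK complex and, through MAP2 kinases, the JNK and p38 kinases. IKK removes the inhibitory IkB proteins from NF-kB, while JNK and p38 phosphorylate transcription factors such as c-Jun and ATF2. Much of this relay works by phosphorylation and ubiquitination of proteins already present, which RNA does not measure. Several inhibitors, with Nfkbia as the classical case, are also transcriptional targets of NF-kB.

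The pools held 7534594 to 58081835 UMIs, the molecule counts of each library, with medians of 598 to 5012 UMIs per nucleus, and the control pool of each pair held more UMIs in total than its stress pool, whereas the median per nucleus was higher in the stress pool of the PLX5622 and IL-1R1+/+ pairs. The limit of 20% mitochondrial UMIs per nucleus took out 516 of 57350 nuclei and left 56834, and no cell barcode was shared between pools. Levels are UMIs scaled to 1000000 UMIs of the same class and pool (CPM). Because longer genes yield more nuclear UMIs, CPMs were compared between classes for 1 gene and not between genes. Classes carried their defining markers, with mean CPMs of 289.5 for Prox1 in DG neurons, 286 for Mpped1 in CA1, 260.2 for Gad1 in inhibitory neurons (INH), 1022 for Mag in oligodendrocyte-like, 1503 for Slc1a3 in astrocyte-like and 3804 for Flt1 in endothelial-like nuclei. The microglia-like class was a mixture: Csf1r averaged 250.1 CPM there beside 2300 CPM of the neuronal gene Syt1. A subset of it, the nuclei also named microglia-like in a finer clustering (resolution 2.0), held less neuronal RNA. This subset had 1208 CPM of Csf1r and 598 CPM of Syt1, but also 705 CPM of the astrocyte gene Slc1a3. Its means and SDs cover the 5 pools with at least 20 of its nuclei. Con-nIL-1R1-/-, with 18, and both PLX5622 pools, with 0, are left out of them. Medium spiny-like nuclei came almost only from Stress-IL-1R1+/+ (92.8%), and an unnamed neuronal cluster of 1965 nuclei came mostly from Con-IL-1R1+/+ (77.9%). Slc17a6 excitatory-like nuclei numbered 186 in Control-Vehicle and 6 in Stress-Vehicle, and 229 in Control-PLX5622 and 66 in Stress-PLX5622. Sums over all nuclei or all neuronal clusters therefore also moved with the mix of classes.

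Il1r1, the receptor itself, was read first as the check of the genotype labels. It spans chromosome 1 from 40264174 to 40356417 on the plus strand (GRCm39, as are the other gene positions). In DG neurons, the neuronal class with the highest Il1r1, it stood at 85.0, 90.4, 61.6 and 11.5 CPM in the control pools and at 70.9, 56.0, 29.9 and 9.01 CPM in the stress pools. Both nIL-1R1-/- pools lay below all 6 others. The nIL-1R1-/- pair was lower than the IL-1R1+/+ pair by a log2 fold change of -2.16 (SE 0.22, adjusted p = 3e-05 in edgeR), which matched the labels. Each genotype was 1 pair, so this p-value rests on the spread within pairs and not on differences between pairs. The call was lost in nuclei thinned to 500 UMIs (log2 fold change -1.74, adjusted p = 0.372). Under stress, Il1r1 in DG was lower in each pair, at a log2 fold change of -0.619 that did not pass the edgeR test. Over 13 alternative settings of edgeR or DESeq2 it ran from -0.83 to -0.455, with adjusted p from 0.0172 to 0.797. The paper, by contrast, reports that stress raised the counts of this gene in DG neurons. Its figure shows percentages and numbers of Il1r1-positive neurons, in the genotype groups only, so measure and samples differ from the CPMs here. The reason for this difference was not tested. In endothelial-like nuclei Il1r1 stood at 105, 191, 92.7 and 24.3 CPM in control pools and at 736, 252, 367 and 212 CPM in stress pools. The stress pools were all higher there, although Control-PLX5622 held only 3 Il1r1 UMIs. The difference passed the test at a log2 fold change of 2.26 (SE 0.35, adjusted p = 8.2e-05), but not without the pair term (adjusted p = 0.0755) nor in the 4 genotype pools alone (adjusted p = 0.0557).

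Across classes, the pathway genes were not evenly spread, as the heat map of levels by class shows. The map leaves out Cajal-Retzius-like and vascular leptomeningeal-like nuclei, which the counts below include. Of the 35 genes, 17 had their highest mean CPM in endothelial-like, 6 in Cajal-Retzius-like and 4 in vascular leptomeningeal-like nuclei. These classes held few UMIs, 15684 in the shallowest endothelial-like pool, and the share of all genes highest there was not computed. Endothelial-like nuclei exceeded the second class in 8 of 8 pools for Nfkbia, but in 1 of 6 for Nfkbie and 3 of 7 for Map3k7. The endothelial-like count was 11 when each nucleus was weighted equally. It was 10 when the microglia-like subset with less neuronal RNA replaced the whole microglia-like class, in which case 15 genes peaked in that subset. Classes were built from the same expression data, so these levels are a description, given as the mean and SD over pools with no test.

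**Figure D1:**
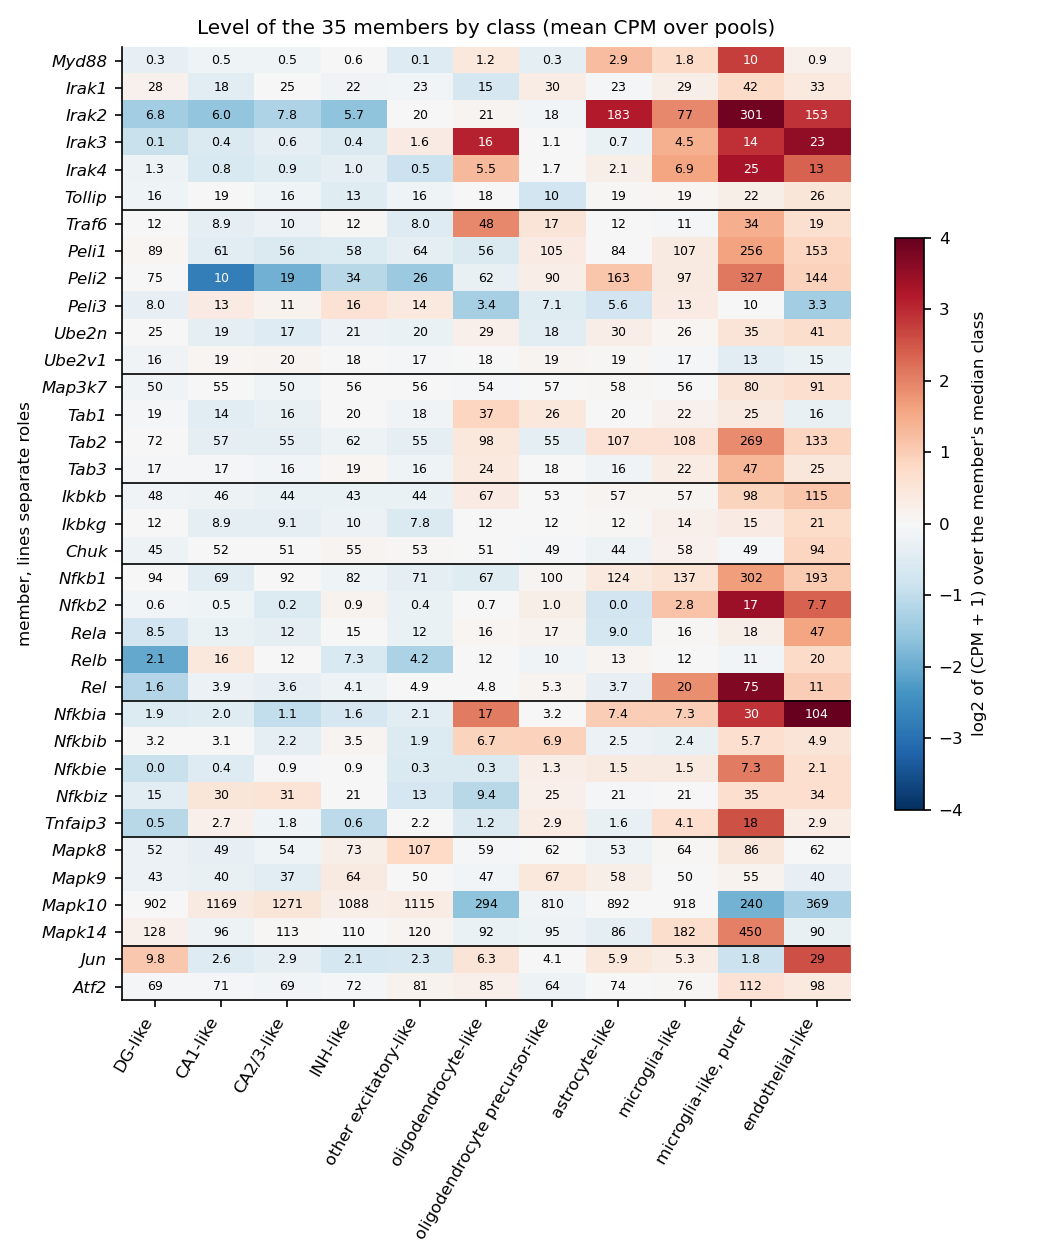
Heat map of the level of the 35 genes (rows, grouped by role) in classes of nuclei (columns). Colours compare classes within a gene and not genes with each other, on the scale labelled at the colour bar. Among the 12 classes fitted, endothelial-like nuclei were highest for 17 genes, but the map does not draw Cajal-Retzius-like and vascular leptomeningeal-like nuclei. It adds the microglia-like subset with less neuronal RNA, which exceeded endothelial-like nuclei for some of these 17, such as Nfkb1, Tab2 and Peli1. Mapk10 was highest in CA2/3 neurons. Irak2 was high in astrocyte-like and endothelial-like nuclei and in that subset but not in neuronal nuclei.

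The adaptor and receptor-proximal kinases gave few UMIs or differed between classes. Myd88 (chromosome 9, 119165000 to 119170486, minus strand), the adaptor that recruits the IRAK kinases, gave 118 UMIs in all nuclei together. The microglia-like subset averaged 10.2 ± 11.8 CPM, from 3 UMIs. Among whole classes Myd88 reached at most 2.87 ± 2.98 CPM (SD, n = 8 pools), in the astrocyte-like one. There it was read from 0, 1, 1 and 2 UMIs in control pools and from 1, 1, 0 and 0 UMIs in stress pools. The limit that a count of 0 allows, 3 UMIs, would be 12.6 CPM in Stress-IL-1R1+/+ astrocyte-like nuclei, above the mean of that class. All neuronal clusters together averaged 0.428 ± 0.145 CPM of Myd88. Differences between classes in Myd88 rest on few UMIs and were not tested. Irak4, the kinase that MyD88 binds first, reached 12.7 ± 11.9 CPM in endothelial-like nuclei and at most 1.29 ± 0.79 CPM in DG, CA1, CA2/3 or INH neurons. In the microglia-like subset Irak4 averaged 25.2 ± 23.1 CPM, from 12 UMIs. Irak1, the substrate kinase of IRAK4, differed less between classes. Among the whole classes drawn in the heat map it ran from 15.1 ± 9.66 CPM in oligodendrocyte-like to 32.9 ± 22.5 CPM in endothelial-like nuclei. The microglia-like subset averaged 42.4 ± 48.6 CPM, from 14 UMIs.

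Irak2 (chromosome 6, 113615386 to 113672470, plus strand), which sustains the later phase of IL-1 signalling, was highest in astrocyte-like and endothelial-like nuclei and in the microglia-like subset. It averaged 183 ± 41.1 CPM in astrocyte-like and 153 ± 78.0 CPM in endothelial-like nuclei. In the microglia-like subset it averaged 301 ± 39.7 CPM (n = 5 pools). Its mean in DG, CA1, CA2/3 and INH neurons lay between 5.74 and 7.84 CPM. Oligodendrocyte-like nuclei, at 21.3 ± 11.2 CPM, and oligodendrocyte precursor-like nuclei, at 18.0 ± 7.40 CPM, were level with other excitatory neurons at 19.7 ± 4.84 CPM. In astrocyte-like nuclei the 8 pools ran from 110 to 244 CPM, so the lowest pool was still far above the means of these neurons, while the order of astrocyte-like and endothelial-like nuclei lay within their spread. Irak3, an inactive kinase that restrains the pathway, averaged 22.9 ± 15.2 CPM in endothelial-like and 16.2 ± 8.15 CPM in oligodendrocyte-like nuclei and stayed below 1 CPM in DG, CA1, CA2/3 and INH neurons. In endothelial-like nuclei Irak3 stood at 34.9, 0, 33.7 and 9.11 CPM in control pools and at 44.3, 10.96, 21.1 and 29.4 CPM in stress pools. These came from 0 to 8 UMIs a pool, and the 0 in Control-PLX5622 allowed up to 191 CPM. Tollip, an adaptor that holds IRAK1 in check, was low everywhere, at 12.7 to 18.6 CPM in the 4 neuronal classes.

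Among the ubiquitin enzymes, Traf6, the ligase that passes the signal from IRAKs to TAK1, was highest in oligodendrocyte-like nuclei, at 48.1 ± 15.5 CPM against 23.9 CPM in the class that came second and 34.3 ± 31.1 CPM in the microglia-like subset. Its pool values there were 47.3, 54.9, 44.8 and 27.8 CPM in control and 66.8, 41.8, 30.6 and 70.9 CPM in stress, which overlapped. The Pellino ligases, which ubiquitinate IRAK1, differed from each other in place. Peli1 was present in every class, from 55.9 ± 13.2 CPM in CA2/3 to 153 ± 59.0 CPM in endothelial-like nuclei, and averaged 256.5 ± 83.4 CPM in the microglia-like subset. Peli2 averaged 163 ± 53.7 CPM in astrocyte-like nuclei and 327 ± 72.3 CPM in the microglia-like subset but 10.2 ± 1.93 CPM in CA1, and among the 4 neuronal classes it was highest in DG at 75.3 ± 17.9 CPM. Peli3 averaged 15.8 ± 1.97 CPM in INH and 3.29 ± 6.11 CPM in endothelial-like nuclei. Ube2n and Ube2v1, the partners that build the ubiquitin chains, were flatter, and Ube2v1 lay between 14.7 and 19.6 CPM in the 4 neuronal, astrocyte-like, oligodendrocyte-like and endothelial-like classes.

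The TAK1 and IKK complexes were read in neurons and in glia. Map3k7, which encodes TAK1, stood between 49.9 and 57.7 CPM in DG, CA1, CA2/3, INH, astrocyte-like and oligodendrocyte-like nuclei, and at 90.8 ± 72.3 CPM in endothelial-like nuclei, where the spread covered the difference. Tab2, a ubiquitin-binding partner of TAK1, was 55.3 to 72.2 CPM in the 4 neuronal classes and 107 ± 29.2 CPM in astrocyte-like nuclei, and it reached 269 ± 85.1 CPM in the microglia-like subset. Tab1 was highest of these classes in oligodendrocyte-like nuclei at 36.6 ± 13.0 CPM, and Tab3 stayed between 16.3 and 25.2 CPM. Ikbkb, the IKK subunit that phosphorylates IkB, averaged 115 ± 34.0 CPM in endothelial-like nuclei and 43.5 to 48.0 CPM in the neuronal classes. Chuk, the other catalytic subunit, averaged 44.7 to 55.2 CPM in those 4 classes, and the scaffold Ikbkg averaged 8.91 to 12.1 CPM.

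The NF-kB subunits differed in the classes that carried them. Nfkb1, which encodes p105 and p50, averaged 193 ± 37.4 CPM in endothelial-like nuclei, above microglia-like nuclei in 6 of 6 pools, and 302 ± 49.1 CPM in the microglia-like subset. In endothelial-like nuclei its control pools stood at 209, 128, 249 and 188 CPM and its stress pools at 213, 154, 196 and 206 CPM, so the groups overlapped. Rel, the c-Rel subunit of immune cells, averaged 74.5 ± 50.2 CPM in the microglia-like subset and at most 4.11 ± 2.15 CPM in the 4 neuronal classes. Rela, the main activating subunit, averaged 8.50 to 15.3 CPM in those neurons. Relb, of the non-canonical pathway, was higher in CA1 at 15.8 ± 4.74 CPM than in DG at 2.06 ± 1.07 CPM, and Nfkb2, its partner, stayed at or below 0.904 CPM in neurons.

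Nfkbia (chromosome 12, 55535332 to 55539432, minus strand), which encodes IkB alpha, was low in neurons and high in endothelial-like nuclei. Endothelial-like nuclei averaged 104 ± 42.7 CPM, above oligodendrocyte-like nuclei at 16.9 ± 8.47 CPM in 8 of 8 pools, and CA2/3 neurons averaged 1.15 ± 0.746 CPM. The endothelial-like pools ran at 69.7, 191, 105 and 66.8 CPM in control and at 115, 132, 66.2 and 88.2 CPM in stress, read from 3 to 25 UMIs. The stress pools lay within the range of the control pools, except Stress-IL-1R1+/+ at 66.2 CPM, just below it. Nfkbiz, an atypical nuclear IkB protein, averaged 31.4 ± 8.39 CPM in CA2/3 and 15.4 ± 1.99 CPM in DG. Nfkbib, Nfkbie and Tnfaip3, the last encoding the deubiquitinase A20, averaged at most 3.49 CPM in the 4 neuronal classes.

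Nfkbia and Nfkb2 both hold a short NF-kB motif before their start, and the windows around it are shown because both genes are known targets of NF-kB. The motif searched was GGANTTTCC on both strands, in the 250 bases before each RefSeq start of GRCm38.p6. It was present for 337 of 27025 genes and for 4 of the 30 members in that promoter table, the others being Map3k7 and Tnfaip3. Both windows are given on the strand of the gene, 5′ to 3′, with the motif in capitals, and Nfkbia held it 2 times, once on each strand. A match describes letters and not a bound site.
Nfkbia, chr12:55492666-55492845, minus strand: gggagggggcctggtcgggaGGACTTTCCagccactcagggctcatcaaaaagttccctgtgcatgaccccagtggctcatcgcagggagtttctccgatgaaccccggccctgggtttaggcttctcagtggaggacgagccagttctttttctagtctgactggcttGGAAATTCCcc
Nfkb2, chr19:46305686-46305865, plus strand: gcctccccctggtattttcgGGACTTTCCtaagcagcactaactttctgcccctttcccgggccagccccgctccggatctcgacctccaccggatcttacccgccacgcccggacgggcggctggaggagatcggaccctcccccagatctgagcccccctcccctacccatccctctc
The CRE palindrome TGACGTCA, which ATF2 and CREB family proteins can bind, was present for 1.77% of genes and, among the members, for Mapk10 alone.

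The kinases at the end of the MAPK arm also differed between classes. Mapk10 (chromosome 5, 103055814 to 103359375, minus strand), which encodes the neuronal kinase JNK3, averaged 1271 ± 185 CPM in CA2/3, 1169 ± 149 CPM in CA1 and 294 ± 91.5 CPM in oligodendrocyte-like nuclei. In CA2/3 its pools stood at 1162, 1162, 1439 and 1457 CPM in control and at 1014, 1077, 1407 and 1446 CPM in stress. Each stress pool was below its control, but the pairs differed more from each other than stress from control (log2 fold change -0.11, SE 0.09, adjusted p = 0.615). Mapk8 and Mapk9, which encode JNK1 and JNK2, averaged 72.8 ± 13.9 and 64.3 ± 9.33 CPM in INH, the highest of the 4 neuronal classes for both. Outside these 4, Mapk8 averaged 107 ± 31.8 CPM in other excitatory neurons and 142.5 ± 50.9 CPM in Cajal-Retzius-like nuclei. Mapk9 averaged 72.1 ± 28.1 CPM in Cajal-Retzius-like nuclei. Mapk14, which encodes p38 alpha, averaged 182 ± 29.9 CPM in microglia-like nuclei and 450 ± 107 CPM in their subset, against 95.6 to 128 CPM in the 4 neuronal classes. Of the transcription factors, Jun was low in neurons, at 9.78 ± 4.50 CPM in DG and 2.11 to 2.91 CPM in CA1, CA2/3 and INH, whereas Atf2 was even, at 69.3 to 71.9 CPM in the 4 classes.

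Stress was then compared with control across the 4 pairs, gene by gene within each of 12 classes, with the pair as a term. Of the 35 genes, 30 passed the filter on low counts in at least 1 class. Myd88, Irak3, Irak4, Nfkb2 and Nfkbie passed in none and were tested only in the sums over all neuronal clusters and over all nuclei. In all neuronal clusters together edgeR called 0 of the 35 genes higher and 0 lower, where 0.0106% of all genes were called higher. There 3 of the 35 had an unadjusted p below 0.05, against 13.5% of all genes. Of 235 tests on members, edgeR called 0 higher and 0 lower at an adjusted p below 0.05, where 0.369% of 94617 tests on all genes were called higher and 0.215% lower. DESeq2 called 0 members higher and 1 lower, where it called 291 of 94617 tests on all genes higher and 221 lower. At an unadjusted p below 0.05, 19 of 235 member tests passed (8.09%), against 11.6% of tests on all genes. The smallest adjusted p of any member was 0.0547, for Atf2 in CA2/3. Control and stress pools did not overlap in 10 of 235 member tests, against 5.44% of all tests. By class, this share of all genes was 4.46% in CA1, 4.17% in CA2/3, 7.15% in endothelial-like and 13.8% in microglia-like nuclei. Members were higher in every pair in 17 of the 235 tests and lower in 27. Of all genes tested, 10.7% were higher and 9.64% lower in every pair in DG, and 12.9% and 10.6% in CA1. These shares were 12.4% and 10.6% in CA2/3 and 9.19% and 8.77% in INH. They were 9.3% and 8.64% in astrocyte-like and 7.63% and 7.27% in oligodendrocyte-like nuclei. Among all genes tested in DG 0.0769% were called higher, in CA1 0.0239%, in INH 0.0978% (0.0452% lower) and in astrocyte-like nuclei 0.038% (0.133% lower).

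**Figure D2:**
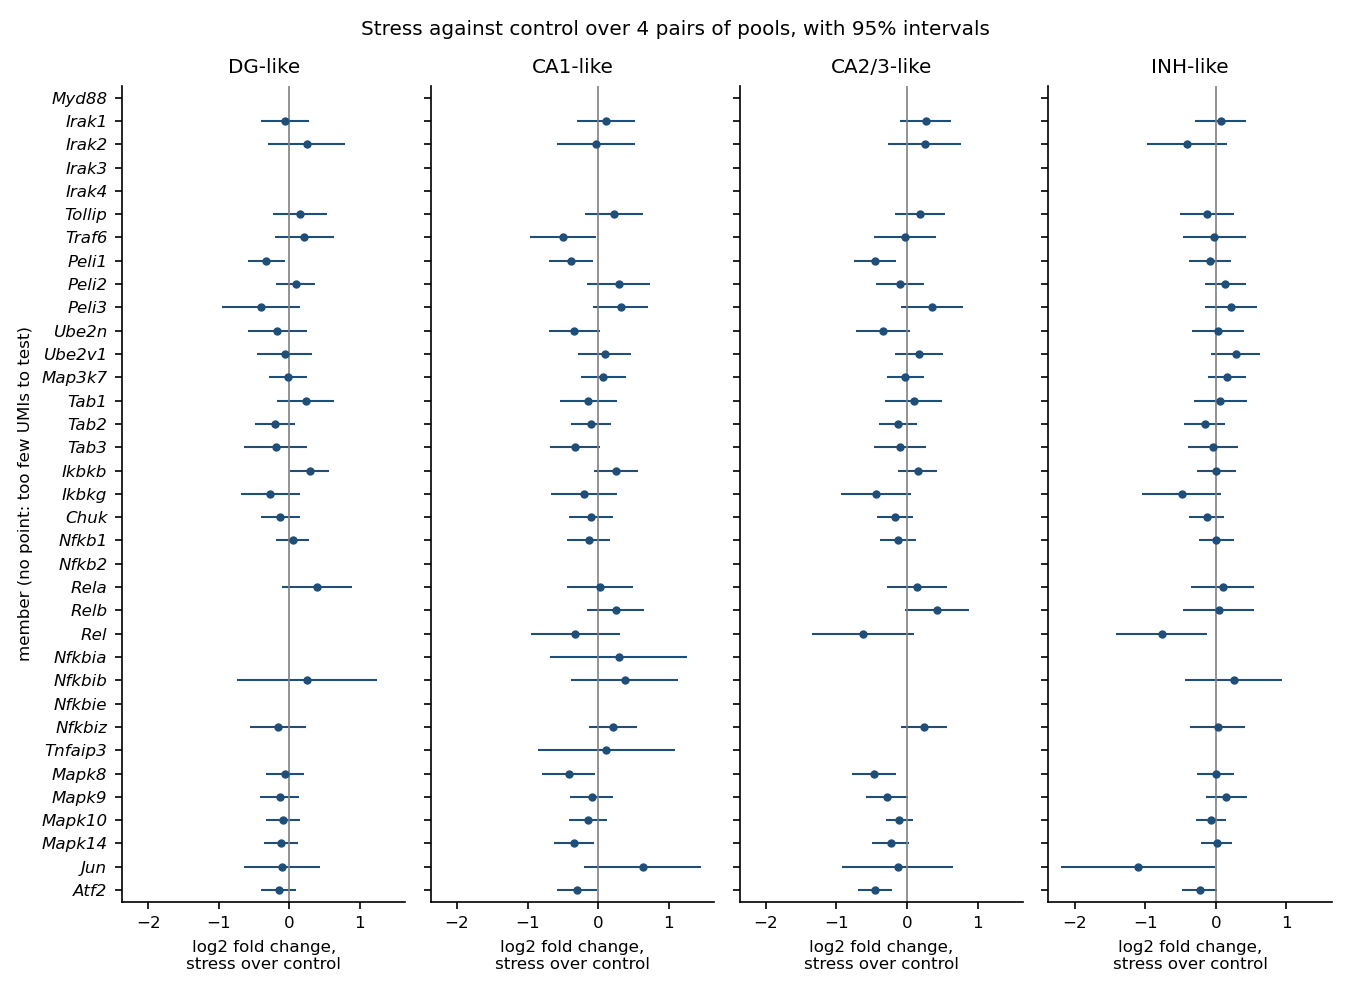
Log2 fold change of stress against control for the members tested in DG, CA1, CA2/3 and INH neurons, as points with 95% intervals from the edgeR fit over 4 pairs, grouped by role. No member was called, the JNK and p38 kinases lay below 0 in DG, CA1 and CA2/3, and Atf2 in CA2/3 had the smallest adjusted p (0.0547).

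Atf2 (chromosome 2, 73644562 to 73723111, minus strand), a CRE-binding factor that JNK and p38 phosphorylate, was the gene nearest to the threshold. In CA2/3 neurons it stood at 70.2, 89.6, 77.2 and 82.4 CPM in control pools and at 52.1, 64.2, 56.1 and 62.7 CPM in stress pools. Every stress pool lay below every control pool, at a log2 fold change of -0.46 (SE 0.12, 95% interval -0.70 to -0.22, adjusted p = 0.0547). In CA2/3, 1.05% of all genes were called higher and 0.109% lower. DESeq2 (adjusted p = 0.0489) and a fit with no filter on low counts (adjusted p = 0.0467) called Atf2. In CA2/3 DESeq2 called 120 of 11887 genes higher and 39 lower. The fit with no filter called 213 of 29485 higher and 78 lower there. A fit without the pair term (adjusted p = 0.544) and nuclei thinned to 500 UMIs (adjusted p = 0.317) did not call Atf2. In CA1 it stood at 71.7, 89.1, 72.4 and 79.9 CPM in control and at 60.1, 63.7, 62.5 and 69.4 CPM in stress, again without overlap (log2 fold change -0.30, SE 0.13, adjusted p = 0.299). Each stress pool was also below its control in DG, INH, other excitatory and oligodendrocyte precursor-like nuclei, and in none of these did Atf2 pass the test. In these classes 8.3% to 11.3% of all genes tested were lower in every pair.

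The stress kinases upstream of Atf2 were on the same side in DG, CA1 and CA2/3 but not in other excitatory neurons. All 4 of Mapk8, Mapk9, Mapk10 and Mapk14 had negative fold changes in DG, CA1 and CA2/3, with medians of -0.10, -0.24 and -0.26 on the log2 scale beside medians near 0 for all genes tested, and 2 of 4 were negative in INH and in other excitatory neurons. None passed the test. Mapk8 in CA2/3 was 61.8, 57.9, 62.3 and 67.6 CPM in control and 27.5, 42.6, 60.9 and 52.9 CPM in stress (log2 fold change -0.47, SE 0.15, adjusted p = 0.118). The vehicle pair differed most, and the IL-1R1+/+ pair hardly at all. Without the IL-1R1+/+ pair Mapk8 passed in CA2/3 (adjusted p = 0.0497), in a fit that called 157 of 10844 genes higher and 41 lower. Mapk14 in CA1 stood at 109, 118, 101 and 98.3 CPM in control and at 83.2, 78.2, 81.5 and 96.0 CPM in stress, without overlap (log2 fold change -0.34, SE 0.14, adjusted p = 0.259).

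Peli1 (chromosome 11, 21041243 to 21100582, plus strand), an IRAK-binding Pellino ligase, was lower in each stress pool than in its control in DG, CA1 and CA2/3. In DG it stood at 86.4, 84.1, 112 and 116 CPM in control and at 77.0, 46.5, 96.5 and 95.3 CPM in stress (log2 fold change -0.33, SE 0.13, adjusted p = 0.307). In CA1 it stood at 60.3, 56.0, 77.3 and 81.2 CPM in control and at 42.8, 31.9, 65.5 and 76.3 CPM in stress (log2 fold change -0.38, SE 0.15, adjusted p = 0.255). The groups overlapped in both classes, and the genotype pools lay higher than the diet pools in either condition. In CA2/3 the log2 fold change was -0.45 (SE 0.14, adjusted p = 0.116), in INH -0.08 (SE 0.14) and in endothelial-like nuclei 0.40 (SE 0.33, adjusted p = 0.693), and whether these classes differed was not tested.

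Traf6 took opposite signs in neighbouring neuronal classes. In CA1 it stood at 8.48, 12.1, 9.50 and 11.4 CPM in control and at 8.28, 7.96, 6.25 and 7.18 CPM in stress (log2 fold change -0.49, SE 0.22, adjusted p = 0.311). The CA1 pools did not overlap. In DG all 4 stress pools were above their controls (log2 fold change 0.21, SE 0.20, adjusted p = 0.738). Neither value passed the test, and the difference between the classes was not tested.

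**Figure D3:**
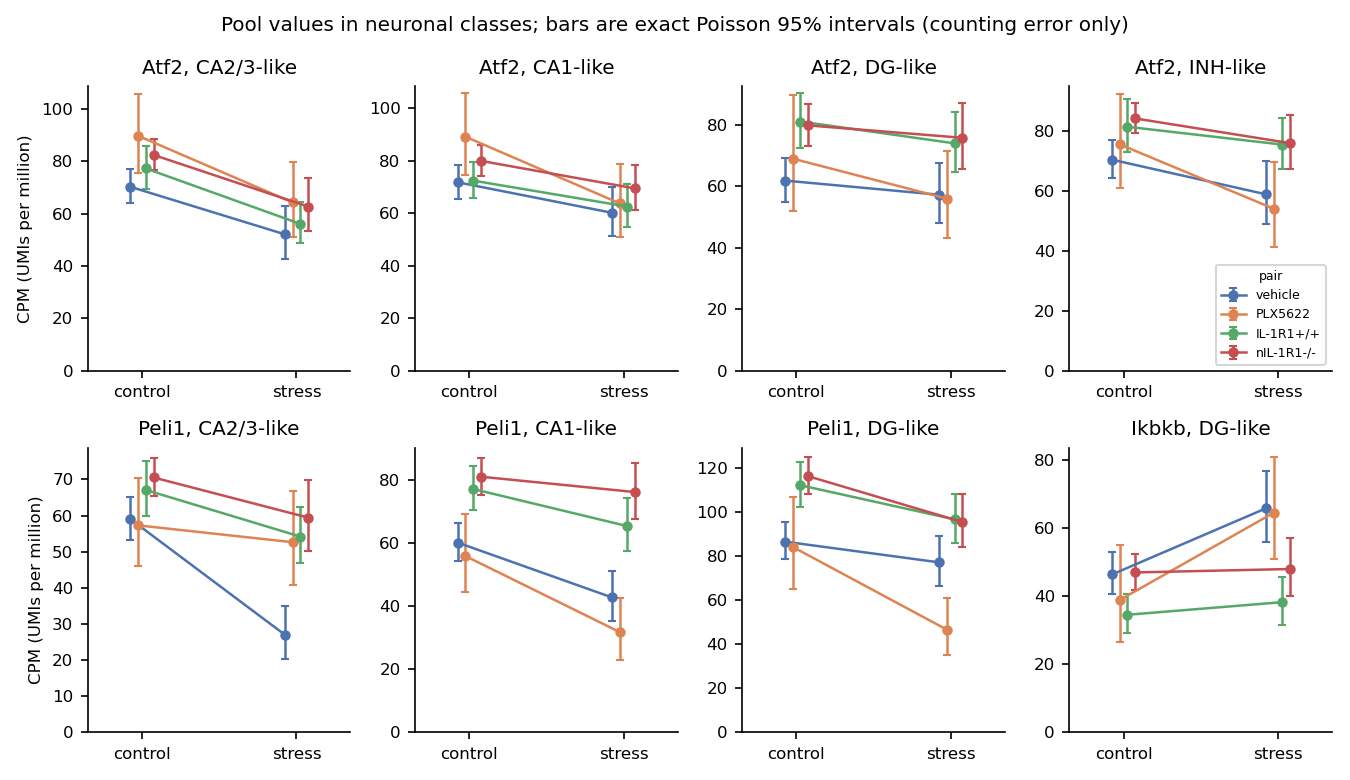
CPM in each of the 8 pools for members described in DG, CA1, CA2/3 and INH neurons, with control and stress pools of a pair joined by a line. Atf2 in CA2/3 was lower under stress in each pair, at 52.1, 64.2, 56.1 and 62.7 CPM against 70.2, 89.6, 77.2 and 82.4 CPM, and Ikbkb in DG was higher in each pair. Neither passed the test.

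On the NF-kB side, Ikbkb was the member with the smallest p among positive values in DG and CA1. In DG it stood at 46.4, 38.9, 34.6 and 47.0 CPM in control and at 65.9, 64.6, 38.3 and 48.0 CPM in stress (log2 fold change 0.29, SE 0.13, adjusted p = 0.386). In CA1 it stood at 43.0, 38.5, 43.2 and 39.0 CPM in control and at 59.4, 60.8, 42.9 and 42.0 CPM in stress (log2 fold change 0.25, SE 0.15, adjusted p = 0.431). In both classes the diet pools carried the difference and the genotype pools were nearly level. Rela in DG was also higher in each pair, at 7.43, 6.28, 6.09 and 8.32 CPM in control and 11.1, 12.1, 7.72 and 9.01 CPM in stress (log2 fold change 0.39, SE 0.24, adjusted p = 0.544).

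In CA2/3 the smallest p among positive values belonged to Relb, at 11.2, 6.85, 10.8 and 9.24 CPM in control and 19.3, 13.9, 8.4 and 13.4 CPM in stress (log2 fold change 0.42, SE 0.22, adjusted p = 0.349). The other pairs were higher and the IL-1R1+/+ pair was lower. Rel was lower in each pair in CA2/3, at 3.98, 4.98, 3.45 and 5.40 CPM in control and 3.38, 2.32, 2.98 and 2.44 CPM in stress (log2 fold change -0.62, SE 0.35, adjusted p = 0.398). In INH neurons Rel stood at 2.97, 4.81, 8.27 and 4.94 CPM in control and at 0.91, 2.70, 4.63 and 3.67 CPM in stress, also lower in each pair (log2 fold change -0.77, SE 0.31, adjusted p = 0.397). Some of these values came from few molecules, with 2 Rel UMIs in Stress-Vehicle and 3 in Stress-PLX5622 INH neurons. Ube2v1 was the INH member with the smallest p among positive values, at 15.7, 18.5, 15.8 and 14.8 CPM in control and 20.5, 26.1, 19.5 and 15.8 CPM in stress (log2 fold change 0.28, SE 0.16, adjusted p = 0.608).

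In endothelial-like nuclei, which held 20 to 64 nuclei a pool, Mapk10 was the member with the smallest p. It stood at 453, 638, 240 and 675 CPM in control and at 124, 219, 271 and 335 CPM in stress, lower in 3 of 4 pairs and higher in the IL-1R1+/+ pair (log2 fold change -0.96, SE 0.30, adjusted p = 0.0653). Syt1, a neuronal gene, moved the same way in each pair of the same nuclei, at 820, 956, 510 and 1489 CPM in control and 231, 395, 695 and 823 CPM in stress. Of 64 neuronal markers 55 had a UMI in this class, and the 9 at 0 were C1ql2, Pou3f1, Spink8, Slc32a1, Vip, Lhx5, Drd1, Penk and Shox2. The summed level of the 64 markers ran from 6887 to 8820 CPM in control and from 6687 to 7427 CPM in stress pools. In CA1 neurons the same sum was 5830 to 6989 CPM, so it does not measure the share of neuronal RNA in a class. The part of neuronal RNA in the Mapk10 difference was not tested. Without the IL-1R1+/+ pair the value was -1.37 (adjusted p = 0.000157), in a fit that called 300 of 2639 genes lower and 108 higher. Without nuclei scored as doublets it was -0.55, but this fit also held 3 pairs in place of 4. In the fit to all 4 pairs 0.834% of all genes were called higher and 2.11% lower.

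None of the 13 members tested in the endothelial-like class passed the test. Chuk (log2 fold change -0.69, SE 0.46, adjusted p = 0.588) and Mapk14 (-0.64, SE 0.39, adjusted p = 0.518) lay on the same side as Mapk10, each lower in 3 of 4 pairs. Ikbkb stood at 87.2, 63.8, 101 and 97.2 CPM in control and at 151, 164, 120 and 135 CPM in stress, without overlap, but Control-PLX5622 rested on 1 UMI (95% Poisson interval 1.61 to 355 CPM), and the fit gave a log2 fold change of 0.45 (SE 0.35, adjusted p = 0.666). Nfkbia had a log2 fold change of -0.11 (SE 0.39, adjusted p = 0.95) and Nfkb1 of -0.12 (SE 0.30, adjusted p = 0.93). Both were close to 0 beside standard errors of that size, while Il1r1 rose in the same nuclei.

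In astrocyte-like nuclei Peli2 had the smallest p among positive values. It stood at 131, 155, 125 and 110 CPM in control and at 124, 171, 253 and 235 CPM in stress (log2 fold change 0.55, SE 0.22, adjusted p = 0.366). The genotype pools differed most. In those 4 pools alone the log2 fold change was 1.02 (adjusted p = 0.0106, in a fit that called 48 of 4846 genes higher and 64 lower), and in nuclei thinned to 500 UMIs it was -0.23. Tab2 stood at 94.6, 138, 152 and 115 CPM in control and at 75.4, 74.3, 122 and 85.3 CPM in stress, lower in each pair (log2 fold change -0.50, SE 0.23, adjusted p = 0.455). Irak2 stood at 164, 244, 154 and 110 CPM in control and at 204, 213, 194 and 183 CPM in stress, with overlap (log2 fold change 0.26, SE 0.20, adjusted p = 0.736).

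Microglia-like nuclei could be compared in 3 pairs, since the PLX5622 pools held 8 such nuclei each. Irak2 stood at 47.6, 75.4 and 34.1 CPM in Control-Vehicle, Con-IL-1R1+/+ and Con-nIL-1R1-/-, and at 116, 76.2 and 112 CPM in the matching stress pools (log2 fold change 0.91, SE 0.26, adjusted p = 0.13). The groups did not overlap, by less than 1 CPM between Con-IL-1R1+/+ and Stress-IL-1R1+/+. With 3 pairs, 13.8% of all genes tested in this class did not overlap either. The subset with less neuronal RNA made up 14.0%, 22.9% and 12.1% of these nuclei in control and 19.0%, 18.1% and 27.3% in stress. It was set by cluster and not by the neuronal RNA of each nucleus. This share was higher under stress in 2 of 3 pairs and lower in the IL-1R1+/+ pair. Within that subset Irak2 stood at 371, 277 and 223 CPM in control and at 291, 276 and 291 CPM in stress, which overlapped. Without the IL-1R1+/+ pair Irak2 passed the test in the whole class (log2 fold change 1.38, adjusted p = 3.59e-05 on 2 pairs), in a fit that called 569 of 8618 genes higher and 365 lower. In the fit to 3 pairs 0.676% of all genes were called higher and 0.0633% lower.

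Oligodendrocyte-like nuclei gave no adjusted p below 0.855 for a member. Chuk stood at 37.3, 18.3, 72.4 and 27.8 CPM in control and at 53.4, 47.8, 75.5 and 74.0 CPM in stress, higher in each pair (log2 fold change 0.56, SE 0.31, adjusted p = 0.855). Mapk8 stood at 47.3, 91.4, 69.8 and 75.9 CPM in control and at 53.4, 23.9, 48.6 and 58.6 CPM in stress, lower in 3 of 4 pairs (log2 fold change -0.47, SE 0.30, adjusted p = 0.899). Both ranges overlapped.

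In the sum over all nuclei, where all 35 genes were tested, the inhibitors and the receptor-proximal group had positive fold changes and the JNK and p38 kinases negative ones. All 6 receptor-proximal genes and all 5 inhibitors had log2 fold changes above 0, with medians of 0.13 and 0.29, and all 4 kinases lay below 0, with a median of -0.12. None of the 35 passed the test, where 0.308% of all genes were called higher and 0.0202% lower. Irak2 stood at 12.4, 14.6, 12.3 and 8.73 CPM in control and at 17.8, 21.1, 14.0 and 13.4 CPM in stress, higher in each pair (log2 fold change 0.42, SE 0.12, adjusted p = 0.162). Nfkb2 stood at 0.39, 0.65, 0.64 and 0.31 CPM in control and at 1.32, 1.33, 0.96 and 0.57 CPM in stress (log2 fold change 1.02, SE 0.30, adjusted p = 0.186), from 5 to 27 UMIs a pool. Nfkbia stood at 2.97, 2.48, 2.65 and 2.20 CPM in control and at 3.56, 6.24, 2.88 and 2.98 CPM in stress (log2 fold change 0.43, SE 0.19, adjusted p = 0.342). All 3 genes were higher in each of the 4 pairs, as were 13.5% of all genes tested. From these sums alone more nuclei of a class and more RNA per nucleus cannot be told apart. Astrocyte-like nuclei numbered 221, 147, 176 and 81 in control and 153, 387, 73 and 94 in stress pools. Endothelial-like nuclei numbered 34, 20, 64 and 35 in control and 47, 62, 58 and 48 in stress pools. Within astrocyte-like nuclei Irak2 was lower under stress in the PLX5622 pair alone. Within endothelial-like nuclei Nfkbia was lower in the PLX5622 and IL-1R1+/+ pairs. The part of these numbers in the sums was not tested.

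The genotype contrast compared the nIL-1R1-/- pair with the IL-1R1+/+ pair in 11 classes. Each genotype was 1 pair, so the p-values rest on the spread within pairs. Genotype cannot be told apart from other differences between these pairs. EdgeR called 0 of 234 member tests in either direction, where 0.00533% of 93796 tests on all genes were called higher and 0.00213% lower. DESeq2 also called 0 members, where it called 1 of 93796 tests on all genes higher and 3 lower. At an unadjusted p below 0.05, 4 of 234 member tests passed (1.71%), against 2.84% of all tests. By class, 0.00855% of all genes tested in DG were called lower, 0.0556% in endothelial-like nuclei were called higher, and in astrocyte-like nuclei 0.038% were called higher and 0.019% lower. These 4 were Ikbkb in DG (log2 fold change 0.41, SE 0.18) and in oligodendrocyte-like nuclei (0.83, SE 0.37), Mapk10 in endothelial-like nuclei (0.88, SE 0.38) and Irak1 in oligodendrocyte precursor-like nuclei (-0.98, SE 0.42). In DG neurons, where Il1r1 itself was lower, no member of its pathway passed the test.

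Whether stress acted differently in nIL-1R1-/- mice was tested by an interaction term against the other 3 pairs. The nIL-1R1-/- pair is 1 control and 1 stress pool, so its stress effect had no replicate and the p-values rest on the spread among the other pairs. EdgeR called 0 of 234 member tests in either direction, where 0.0128% of all tests were called higher and 0.00746% lower. DESeq2 called 0 members, and 0 of 93796 tests on all genes in either direction. At an unadjusted p below 0.05, 13 of 234 member tests passed (5.56%), against 4.97% of all tests. In astrocyte-like nuclei 0.019% of all genes tested had a called higher interaction term. Mapk10 in oligodendrocyte-like nuclei had the smallest adjusted p (0.0931), at 306, 183, 299 and 463 CPM in control and 361, 239, 306 and 194 CPM in stress. Only the nIL-1R1-/- pair was lower under stress, by an interaction of -1.37 (SE 0.36), and Syt1 in these nuclei went from 819 to 561 CPM in the same pair. In a fit without nuclei scored as doublets the term passed the test (-1.43, adjusted p = 0.0294), where 44 of 6006 genes were called lower and 7 higher. In INH neurons Nfkbiz stood at 23.6, 16.9, 24.1 and 20.4 CPM in control and at 19.1, 17.1, 17.8 and 31.8 CPM in stress, highest in Stress-nIL-1R1-/- (interaction 0.94, SE 0.33, adjusted p = 0.676).

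Around the 35 genes, a list of 30 pathway neighbours (receptors, MAP2 and other MAP3 kinases, further MAP kinases and ubiquitin editors) gave 177 stress tests. Of these, 1 was called higher, Il1r1 in endothelial-like nuclei, and 0 lower, beside 0.369% and 0.215% of all tests. At an unadjusted p below 0.05 in edgeR, 29 of the 177 passed (16.4%), against 11.6% of all tests. The same list gave 1 genotype call, Il1r1 in DG. Map2k4, the kinase that activates JNK, came nearest among the others, at 178, 179, 191 and 187 CPM in control and 105, 126, 168 and 150 CPM in stress in CA2/3 (log2 fold change -0.45, SE 0.11, adjusted p = 0.0526). Its groups did not overlap, and DESeq2 called it lower (adjusted p = 0.031), as it did 39 of 11887 genes in CA2/3. A list of 15 genes that NF-kB or AP-1 can induce, such as Icam1, Ptgs2 and Fos, gave 24 stress tests. EdgeR and DESeq2 each called 0 of these. In edgeR 1 passed an unadjusted p below 0.05 (4.17%), against 11.6% of all tests. That gene was Fos in CA1, at 3.57, 4.72, 6.02 and 6.79 CPM in control and 4.32, 7.96, 13.0 and 12.5 CPM in stress (log2 fold change 0.81, SE 0.24, adjusted p = 0.154).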

How the data were processed

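Nuclei from pooled hippocampi were barcoded by split-pool combinatorial indexing (Parse Biosciences) into 4 sublibraries, each holding all 8 pools. The authors aligned reads to mm39 with the Parse pipeline and worked in Seurat 4.1.1. The deposited files used here hold whole-number UMI counts per gene and nucleus, with no normalization. No column of per-sample values was set aside. The labels give 1 group of 4 sublibraries, so pools were read from the deposited sample names of nuclei. A collection time of 14 h after RSD is stated for the genotype pools, and that of the diet pools is not given in the sources used here.

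Nuclei with over 20% mitochondrial UMIs were left out and the rest were clustered in scanpy 1.11.5 (leidenalg 0.10.2, resolution 1.0). Clusters were named from marker lists. The naming rule was widened after the clusters were seen, so that endothelial-like and ependymal-like clusters, which also carried markers of neighbouring cell types, kept a name. The endothelial-like cluster also held pericyte markers. Doublets were scored by simulated neighbours, written for this work, and kept in the main analysis. UMI counts were summed per class and pool, and 12 classes with at least 20 nuclei in both pools of at least 3 pairs were fitted with edgeR 4.0.16 (R 4.3.3: TMM, filterByExpr, quasi-likelihood test) with pair and stress as terms. P-values were adjusted by Benjamini-Hochberg over all genes of a class, at 0.05. Both members of a pair had the same diet or genotype by design, and their residuals correlated (r = 0.161 to 0.207 in DG, 0.176 to 0.266 in CA1, 0.193 to 0.307 in CA2/3 and 0.0828 to 0.219 in INH). Since each pool is 1 library set, p-values measure the spread between pools and not between animals. For the genotype contrast they leave out differences between pairs, which the pair terms absorb. Poisson intervals cover counting error only. The scripts were tested on simulated data. Python 3.11.15, numpy 2.4.6, scipy 1.17.1, pandas 2.3.3 and scikit-learn 1.9.0 were used.

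The 35 genes, the lists and the tests were chosen with earlier results of these data known. Values in every pool are given for members called, for the member with the smallest p in each direction per main class, and for pathway nodes in their highest class. The microglia-like subset, and Traf6, Mapk14, Mapk8, Rela, Rel in CA2/3, Irak2 in microglia-like nuclei, Nfkbiz, Map2k4, Fos and the sums over all nuclei, were added after values were seen. The promoter motif was shortened by 1 letter after a longer form had been searched. Alternatives were DESeq2 1.42.0, RLE size factors, no filter, no pair term, thinning to 500 UMIs (8013 shallower nuclei left out), a 5% mitochondrial limit, resolution 2.0, 3410 nuclei removed as doublets, the genotype pools alone and leaving out each pair.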

Additional observations from a re-analysis of the deposited data

How the results depend on the processing

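Members were called under few settings. Calls of members higher under stress numbered 0 in the main fit, 1 in the 4 genotype pools alone (Peli2 in astrocyte-like nuclei) and 0 to 3 when 1 pair was left out, the 3 coming without the IL-1R1+/+ pair (Irak2, Peli2 and Rel in microglia-like nuclei, on 2 pairs, where 569 of 8618 genes were called higher). Calls lower under stress numbered 0 in the main fit, 1 with DESeq2, 1 with no filter on low counts (Atf2 in CA2/3 in both) and 0 to 3 when 1 pair was left out (Mapk10 in endothelial-like and microglia-like nuclei and Mapk8 in CA2/3, without the IL-1R1+/+ pair). The interaction gave 0 calls lower in the main fit and 1 without doublets (Mapk10 in oligodendrocyte-like nuclei). The genotype contrast gave 0 in each setting run. The count of 17 genes highest in endothelial-like nuclei was 11 as a mean over nuclei and 10 with the microglia-like subset. Over all genes in the 12 classes, stress calls numbered 349 higher and 203 lower in the main fit, 23 and 28 without the replicate block, 150 and 46 after thinning, 978 and 588 with no filter, 231 and 146 without doublets, 172 and 160 at resolution 2.0, and 83 and 46, 261 and 155, 948 and 785, and 202 and 26 without the vehicle, PLX5622, IL-1R1+/+ and nIL-1R1-/- pair. Stress calls with DESeq2 numbered 291 higher and 221 lower. The block changed no member call, and Il1r1 in endothelial-like nuclei lost its call without it. Genotype calls numbered 5 and 2, and 54 and 44 in the genotype pools alone, and interaction calls 12 and 7, and 21 and 97 without doublets. Signs turned for Irak2 (-0.12) and Peli2 (-0.227) in astrocyte-like nuclei and the Tab3 interaction in DG (-0.238) after thinning, for Nfkb1 (-0.138 to 0.0578 when 1 pair was left out) and Nfkbia (-0.244 to 0.272) in endothelial-like nuclei without the IL-1R1+/+ pair, for Nfkbia there without the block (0.0364), and for Traf6 in oligodendrocyte-like nuclei without the nIL-1R1-/- pair (-0.193 to 0.756 when 1 pair was left out). None of these passed the test. Of 624 alternatives over 57 single results, 604 kept sign and side of the threshold. Since no member was called in the main fit, most kept their side by staying uncalled, and sizes could still move. Ikbkb in CA1, for example, ran from 0.041 to 0.676. The cause of the differences between settings was not tested. Stress pools held fewer UMIs in total than their controls in each pair, several values rest on fewer than 10 UMIs, and each condition is 1 pool.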
